A study of Mus musculus with 6 samples.

Results

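This account covers the ligands and receptors of the fibroblast growth factor (FGF) and epidermal growth factor (EGF) families in mouse prostates that carry PB-Cre4 and a floxed gene, in 4 castrated and 2 intact samples. Members were taken by symbol: Fgf followed by a number, Fgfr1 to Fgfr4, Fgfrl1, and 15 named EGF family ligands and receptors. This gave 42 of the 24421 symbols measured: 22 FGF ligands, 5 FGF receptors, 7 ligands of the EGF receptor, 4 neuregulins and 4 ERBB receptors. A further 2 symbols, Fgfr1op and Fgfr1op2, begin the same way but encode other proteins, named as fusion partners of the receptor gene, and were set apart. They averaged 28.0 ± 3.33 and 90.2 ± 3.64 rescaled CPM in castrated samples (SD, n = 4), against 27.2 ± 0.339 and 91.2 ± 2.08 in intact samples (n = 2).

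All 6 samples have the same genotype, with PB-Cre4 and 2 floxed alleles of 1 gene, so the comparison is castrated against intact within 1 tumour model. PB-Cre4 places Cre recombinase under the probasin promoter, which is active in prostate epithelium, so stromal, vascular and immune cells of the tissue are not targeted. The labels state neither the age of the mice nor the time since castration, and do not say that each sample is a separate animal, so the spread that p-values measure may be technical in part or whole.

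FGFs bind receptor tyrosine kinases of the Fgfr family together with heparan sulfate, while EGF family ligands bind EGFR and its relatives ERBB2, ERBB3 and ERBB4. Both receptor families signal through RAS and ERK and through PI3K. In the prostate, Fgf7 and Fgf10 are known as stromal ligands of the epithelial form of Fgfr2, and they have long been studied as candidate carriers of androgen signals from stroma to epithelium. Fgf11, Fgf12, Fgf13 and Fgf14 form a separate branch of homologous factors that mostly stay inside the cell and act on ion channels.

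Gene counts summed to 53191083 to 59170793 reads in castrated samples and to 43679297 and 58440892 in intact samples. Values are CPM (counts scaled to a total of 1000000) after a further median-of-ratios scaling, called rescaled CPM. Pbsn, the gene of the prostate protein probasin, was at 0.210 to 2.47 in castrated and at 3.00 and 7.47 in intact samples. Castrated sample 4 was most often at an extreme: it was the highest or the lowest of the 4 castrated samples in 74% of the 13898 genes tested. For castrated samples 1, 2 and 3 this share was 62.1%, 27.6% and 36.3%. Of the 21 members tested, castrated sample 4 was at an extreme in 15 (71.4%).

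None of the growth factor or receptor genes passed the threshold for a difference between castrated and intact prostates. Of the 42 members, 21 reached 1 CPM in at least 2 samples and were tested, and limma called 0 of these 21 at a Benjamini-Hochberg adjusted p under 0.05, counted in either direction, against 1.97% of all 13898 tested genes. At an unadjusted p under 0.05 there were 3 members, Fgf13, Nrg2 and Fgfrl1, a share close to the 15.9% of all tested genes. On whole reads recovered from the deposited values, edgeR called 0 members, against 1.46% of genes, and DESeq2 called 1, Fgf13, against 9.31% of genes. Castrated and intact samples did not overlap in 5 of the 21 members (Fgf9, Fgf10, Fgf13, Fgfrl1 and Nrg2), against 26.6% of all tested genes. The median log2 difference over the 21 members was -0.05, against 0.00 over all tested genes, and it was -0.17 without intact sample 1 and 0.059 without intact sample 2.

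**Figure D1:**
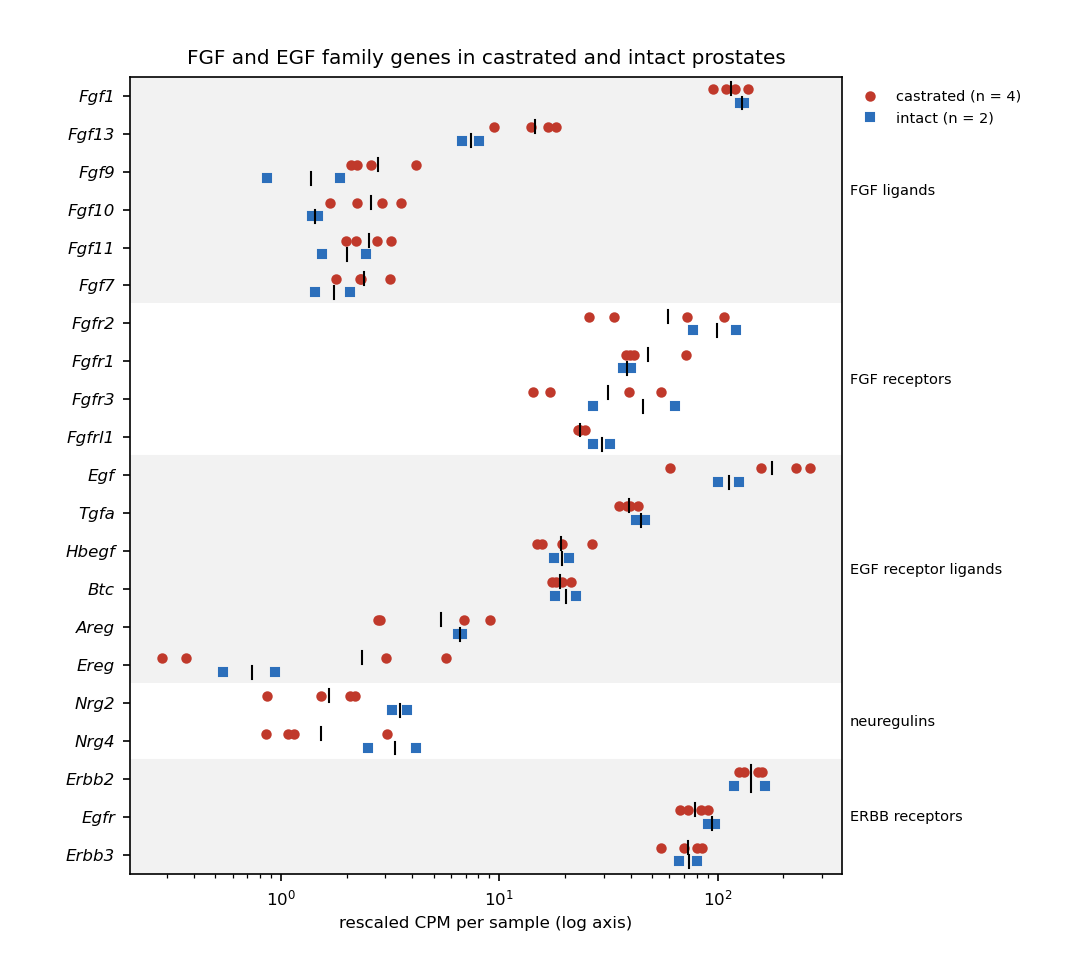
Rescaled CPM of the 21 tested members in each sample, on a log axis. Circles are the 4 castrated samples, squares the 2 intact samples and black ticks the group means. Groups are apart for Fgf13, Fgf9, Fgf10, Fgfrl1 and Nrg2, while Ereg, Egf, Fgfr2 and Fgfr3 spread widely within the castrated group.

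Compared per kilobase of annotated exon, 4 genes had the highest averages in castrated samples, but did not stand apart from the rest as a set. In castrated samples Erbb2, a receptor with no known ligand of its own, had the highest level at 27.3 ± 3.24 rescaled CPM per kilobase, against 27.1 ± 6.25 in intact samples. Fgf1, a ligand that can bind every FGF receptor, followed at 21.1 ± 3.33 in castrated and 23.7 ± 0.629 in intact samples. Egf stood at 15.8 ± 7.95 and 10.02 ± 1.54, and Erbb3, a receptor with a weak kinase, at 12.1 ± 2.19 and 12.2 ± 1.63. Egf ranged from 5.38 to 23.5 in castrated samples, across the ranges of Fgfrl1 and Egfr, and averaged below Fgfrl1 in intact samples. Within the 4 genes Erbb2, Fgf1, Egf and Erbb3, each overlapped the next in the order. Ranges of neighbouring genes were apart in castrated samples only for Erbb3 and Fgfrl1, Fgfrl1 and Egfr, and Fgf13 and Fgf11. Fgf11, Fgf7, Fgf9, Ereg, Fgf10, Nrg2 and Nrg4 each averaged under 1 rescaled CPM per kilobase in castrated samples, from 0.252 for Nrg4 to 0.830 for Fgf11. With the longest transcript as the length, Egf came first in castrated samples and Fgf1 in intact samples, and the rank of Egf depends on the length because 11.3 kb of exon are annotated for it but its longest transcript has 4761 bases.

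Among the FGF ligands, Fgf13 had the smallest p-value of all members. Fgf13 (chromosome X, 59062145 to 59568071), an intracellular homologous factor that binds sodium channels and microtubules, was at 16.7, 14.0, 18.1 and 9.46 rescaled CPM in castrated samples 1 to 4, against 6.77 and 8.03 in intact samples 1 and 2. Every castrated sample was above both intact samples, and castrated sample 4 was the closest to them. The log2 difference was 0.90 (SE 0.27), with a 95% interval of 0.25 to 1.54 and a limma adjusted p of 0.168. Over 18 alternative settings the adjusted p ranged from 0.0195 to 0.632. It was under 0.05 in 3: DESeq2 (adjusted p = 0.0228), limma with array weights (adjusted p = 0.0355) and limma without castrated sample 4 (adjusted p = 0.0195). Array weights called 1 member, against 6.86% of all tested genes, and leaving out castrated sample 4 called 2, against 7.63%. With 1 sample left out, the difference stayed between 1.72-fold and 2.12-fold.

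Because Fgf13 led the members, the sequence before 2 of its start sites is shown, from RefSeq on GRCm38.p6, minus strand, each 250 bases long and ending at the base before the start. Capitals mark the letters TGTTCT on either strand (AGAACA as printed), a half-site bound by several steroid hormone receptors. The outermost RefSeq start lies 17501 bases beyond the GENCODE start of the gene, and the other lies 723 bases inside it.
Fgf13 outermost start, chrX:59585573-59585822: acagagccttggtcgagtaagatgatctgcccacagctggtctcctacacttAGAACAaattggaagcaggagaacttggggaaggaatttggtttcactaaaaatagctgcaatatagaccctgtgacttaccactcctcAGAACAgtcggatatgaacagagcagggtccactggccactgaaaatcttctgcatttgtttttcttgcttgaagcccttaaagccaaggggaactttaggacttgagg
Fgf13 second start, chrX:59567349-59567598: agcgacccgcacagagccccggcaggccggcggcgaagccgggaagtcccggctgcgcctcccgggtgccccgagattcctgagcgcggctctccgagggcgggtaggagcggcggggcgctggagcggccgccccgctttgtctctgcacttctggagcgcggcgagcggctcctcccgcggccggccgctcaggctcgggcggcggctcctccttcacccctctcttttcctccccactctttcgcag
The outermost window held 2 half-sites, which begin 198 and 109 bases before the start, and the other held 0. Over 32851 RefSeq promoter windows that also include 50 bases after the start, 19% held at least 1 half-site and 2.54% at least 2. Of 38 such windows of 30 members, 2 held at least 1, the other being that of Epgn. A match of letters is not a binding site, and gene-level values do not show which start was used.

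The remaining FGF ligands were weakly expressed apart from Fgf1. Fgf9, a ligand known from mesenchyme and epithelium of many organs, was at 2.09, 2.58, 2.23 and 4.17 rescaled CPM in castrated samples 1 to 4, against 0.866 and 1.87 in intact samples. Its groups were apart, with castrated sample 4 the highest and intact sample 1 the lowest. Castrated minus intact, the log2 difference was 0.82 (interval -0.01 to 1.65, limma adjusted p = 0.322). Without intact sample 1 the fold was 1.34, and without intact sample 2 it was 2.33.

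Fgf10 was at 2.22, 2.89, 1.67 and 3.55 in castrated samples, against 1.47 and 1.38 in intact samples. Here too every castrated sample was above both intact samples, with a log2 difference of 0.64 (interval -0.07 to 1.35, limma adjusted p = 0.361). Fgf7, the other stromal ligand of Fgfr2, was at 3.16, 1.78, 2.32 and 2.31 in castrated samples, against 1.43 and 2.08 in intact samples, and its groups overlapped (log2 difference 0.35, limma adjusted p = 0.600). Fgf11, an intracellular homologous factor like Fgf13, averaged 2.53 ± 0.541 and 2.00 ± 0.639, with overlapping groups (log2 difference 0.28, limma adjusted p = 0.682). Fgf1 was at 119.6, 109, 138 and 95.1 in castrated samples, against 127 and 132 in intact samples. Its groups overlapped, and the interval of its log2 difference ran from -0.54 to 0.19 (limma adjusted p = 0.647). The differences of Fgf7, Fgf9, Fgf10, Fgf11 and Fgf13 were positive, 5 of 6 tested genes of this list, with 0 called. The list includes the intracellular factors Fgf11 and Fgf13. Over all tested genes, 6956 of 13898 differences were positive. The list's median was 0.50, and 0.28 without intact sample 1.

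Fgf7 and Fgf10 are made by stromal cells, whose markers were summed over 2 lists. The summed level of 12 smooth muscle genes was 357 to 566 rescaled CPM in castrated and 284 and 291 in intact samples, and groups were apart in 8 of its 11 tested genes, against 26.6% of all tested genes. Of the genes that were apart, only Casq2 was lower in castrated samples, at 1.26 ± 0.325 against 2.45 ± 0.304 in intact samples. In that list limma called 0 genes. It had 8 at an unadjusted p under 0.05 (7 higher and 1 lower in castrated samples), against 15.9% of all tested genes. On the recovered reads edgeR called 0 of the 11 and DESeq2 7, against 9.31% of all tested genes in DESeq2. The sum of 12 fibroblast genes was 892 to 2073 in castrated and 1817 and 1956 in intact samples, so its ranges overlapped. The part of these cell types in the ligand values was not tested. In bulk tissue, fewer cells of a type and less RNA per cell cannot be told apart.

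Among the FGF receptors, Fgfr2 and Fgfr3 varied more among castrated samples than between the groups. Fgfr2 was at 33.6, 72.0, 25.8 and 106.6 rescaled CPM in castrated samples 1 to 4, against 77.4 and 121 in intact samples. Castrated samples 1, 2 and 3 were below both intact samples, castrated sample 2 by little, and castrated sample 4 was between them. Its log2 difference was -0.92 with a wide interval, -2.30 to 0.45 (limma adjusted p = 0.515). Reads of the epithelial and mesenchymal splice forms of Fgfr2 are not separated in gene-level values.

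Fgfr3 was at 17.0, 55.2, 14.3 and 39.04 in castrated samples, against 26.9 and 64.0 in intact samples. Castrated samples 1 and 3 were again the lowest, and the other castrated samples were between the intact samples. For Fgfr3 the log2 difference was -0.61 (interval -2.09 to 0.87, limma adjusted p = 0.704), and it was 0.0053 without intact sample 2. Genes on the opposite strand cover 13.9% of its exon bases, and no source used here says if reads were assigned by strand.

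Fgfr1, the receptor form most associated with mesenchyme, was at 38.1, 41.6, 39.8 and 71.4 in castrated samples, against 37.0 and 40.0 in intact samples. Castrated sample 4 was the only one above the narrow range of the other 5, and the log2 difference was 0.26 with all samples (limma adjusted p = 0.704) and 0.05 without castrated sample 4. Fgfrl1 (chromosome 5, 108692382 to 108706924), a receptor-like protein without a kinase domain, was at 23.2, 22.9, 23.4 and 24.6 in castrated samples, against 32.0 and 26.7 in intact samples. Castrated samples were tightly grouped and all were below both intact samples. For Fgfrl1 the log2 difference was -0.31 (SE 0.12, interval -0.59 to -0.03), with a limma adjusted p of 0.257, and from 0.113 to 0.837 over 18 alternatives. Fgfr4 had 3 reads in castrated and 3 in intact samples in all.

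Among the EGF receptor ligands, Egf itself was the most abundant and the most uneven of the well-expressed members. Egf (chromosome 3, 129677565 to 129755316), whose precursor is a large membrane protein, was at 265, 158, 228 and 60.7 rescaled CPM in castrated samples 1 to 4, against 125 and 101 in intact samples. Castrated samples 1, 2 and 3 were above both intact samples, and castrated sample 4 was below them. For Egf the log2 difference was 0.47 (interval -0.88 to 1.82, limma adjusted p = 0.761), and 0.91 without castrated sample 4 (adjusted p = 0.0661). Over its alternatives the adjusted p ranged from 0.0549 to 0.941. Genes on the opposite strand cover 9.82% of the exon bases of Egf.

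The genes of 4 EGF receptor ligands lie close together on chromosome 5: Epgn (91027464 to 91035215), Ereg (91074622 to 91093646), Areg (91139599 to 91148432) and Btc (91357261 to 91402994). Areg encodes amphiregulin and was at 2.85, 6.88, 2.80 and 9.09 in castrated samples, against 6.44 and 6.75 in intact samples. Ereg encodes epiregulin and was at 0.285, 5.73, 0.369 and 3.04 in castrated samples, against 0.936 and 0.542 in intact samples. For each of these genes, castrated samples 2 and 4 were above both intact samples and castrated samples 1 and 3 below them. Ereg passed the filter only through castrated samples 2 and 4, so its pattern was set in part by the filter.

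Areg had a log2 difference of -0.42 (interval -1.58 to 0.73) and Ereg of 0.69 (interval -1.46 to 2.84), with limma adjusted p of 0.742 and 0.781. Ereg did not reach the filter without castrated sample 2 or 4. Btc, which encodes betacellulin and lies in the same stretch, was at 18.2, 19.3, 17.4 and 21.2 in castrated samples, against 22.5 and 18.03 in intact samples. Its castrated samples were within a ratio of 1.22 of each other and overlapped the intact samples (log2 difference -0.08, interval -0.43 to 0.26, limma adjusted p = 0.854).

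Tgfa and Hbegf encode ligands that are shed from the cell surface. Tgfa was at 35.5, 39.6, 38.4 and 43.3 in castrated samples, against 42.1 and 46.5 in intact samples, with castrated sample 4 between the intact samples (log2 difference -0.18, interval -0.45 to 0.10, limma adjusted p = 0.530). Hbegf was at 15.6, 26.4, 14.9 and 19.3 in castrated samples, against 17.8 and 20.9 in intact samples, with castrated samples 1 and 3 below both intact samples and castrated sample 2 above them (log2 difference -0.05, interval -0.63 to 0.53, limma adjusted p = 0.957). In this class limma called 0 of 6 tested genes, with 0 at an unadjusted p under 0.05, and edgeR and DESeq2 called 0. The median difference was -0.07, and -0.18 to 0.0052 with 1 sample left out.

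Neuregulins bind ERBB3, ERBB4 or both, and the 2 tested ones were lower on average in castrated samples. Nrg2 was at 1.52, 2.19, 0.861 and 2.07 rescaled CPM in castrated samples 1 to 4, against 3.77 and 3.22 in intact samples. Every castrated sample was below both intact samples, with a log2 difference of -0.93 (SE 0.33, interval -1.71 to -0.15). Its limma adjusted p was 0.224, and 0.119 to 0.709 over 18 alternatives.

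Nrg4, a ligand of ERBB4, was at 0.856, 1.15, 1.07 and 3.05 in castrated samples, against 4.14 and 2.50 in intact samples. Castrated samples 1, 2 and 3 were below both intact samples and castrated sample 4 was between them. For Nrg4 the log2 difference was -0.99 (interval -2.04 to 0.06, limma adjusted p = 0.341). Without castrated sample 4 it was -1.29 (adjusted p = 0.0464), and over 18 alternatives the adjusted p ranged up to 0.865. Genes on the opposite strand cover 8.97% of the exon bases of Nrg4.

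The tested ERBB receptors had narrow intervals. Egfr was at 73.1, 83.8, 67.0 and 90.4 in castrated samples, against 90.3 and 97.3 in intact samples. Castrated sample 4 was level with the lower intact sample and the other castrated samples were below it. The log2 difference was -0.26 (interval -0.59 to 0.07, limma adjusted p = 0.423).

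Erbb2 was at 124, 159.8, 131 and 153 in castrated samples, against 118 and 164 in intact samples, so that all castrated samples were inside the intact range. The interval of its fold ran from 0.767 to 1.34 (limma adjusted p = 0.975). Erbb3 averaged 72.8 ± 13.2 in castrated and 73.6 ± 9.83 in intact samples, with an interval of the fold from 0.716 to 1.34 (limma adjusted p = 0.969). Erbb4, the receptor that neuregulins can activate alone, was below the filter, at 0.145 to 0.914 in castrated and 0.245 and 0.515 in intact samples.

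**Figure D2:**
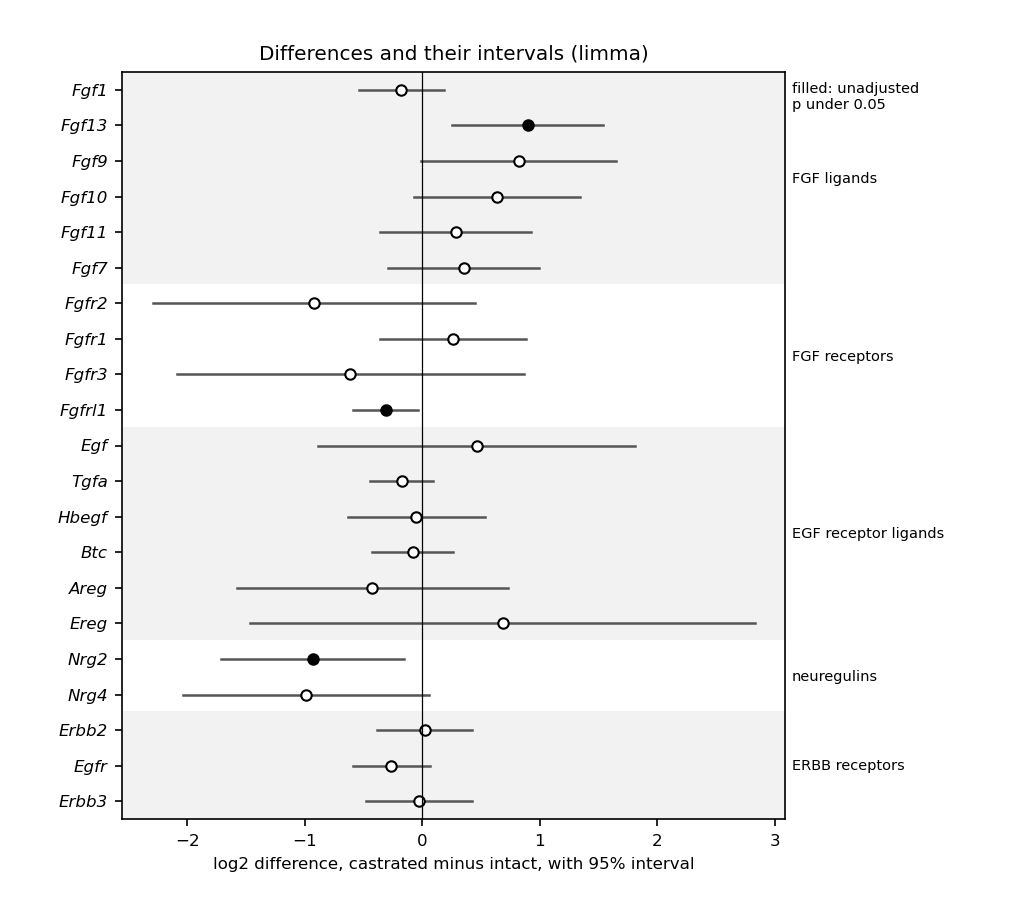
Log2 difference of each tested member, castrated minus intact, with its 95% interval from limma. Filled points have an unadjusted p under 0.05 (Fgf13, Fgfrl1 and Nrg2), and 0 of the 21 passed after adjustment. Intervals are widest for Ereg, Fgfr3, Fgfr2 and Egf, and narrow for Fgfrl1, Tgfa, Btc and Egfr.

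A spread within the castrated group was the clearest feature of several members. The highest castrated sample exceeded the lowest 20.1-fold for Ereg, 4.36-fold for Egf, 4.13-fold for Fgfr2, 3.85-fold for Fgfr3, 3.57-fold for Nrg4 and 3.25-fold for Areg. For these 6 of 21 members the log2 range among castrated samples was above the 90th percentile of all tested genes, whose median range was 0.467. Ereg passed the filter only through castrated samples 2 and 4, where it was high, so its wide range follows in part from the filter. At the other end, Fgfrl1 varied 1.07-fold, Btc and Tgfa 1.22-fold each and Erbb2 1.28-fold.

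Markers of basal epithelium, the layer beside the stroma, varied across the same samples. The summed level of 11 basal genes was 1163, 4118, 1389 and 3445 rescaled CPM in castrated samples 1 to 4, against 4606 and 4909.7 in intact samples. It was thus low in castrated samples 1 and 3, the castrated samples in which Fgfr2, Fgfr3 and Areg were lowest. So were many other members, such as Egfr, Erbb2, Tgfa, Btc, Hbegf and Nrg2, and Ereg, which passed the filter only through the other 2. Castrated samples 1 and 3 were each the lowest castrated sample in 8 of 21 members, against 4209 and 2431 of 13898 tested genes. They were the most alike of all sample pairs (correlation of log2 values 0.9883). The sum of 5 urothelial genes was also low in castrated samples 1 and 3. It was at 103, 188, 65.8 and 183 in castrated samples 1 to 4, against 62.0 and 196 in intact samples 1 and 2. Of the 11 basal genes, 2 fell in castrated samples (limma), and edgeR called 2 and DESeq2 4. Over all tested genes limma called 1.97%, edgeR 1.46% and DESeq2 9.31%. The sum of 12 luminal genes was 12400.1, 9820.3, 11025 and 8320.4 in castrated samples, against 11785 and 11627 in intact samples, with castrated sample 4 the lowest, as for Egf. In the luminal list limma and edgeR each called 1 gene, which fell, and DESeq2 called 2, beside the same shares of all tested genes. The part of these cell types in the values was not tested.

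**Figure D3:**
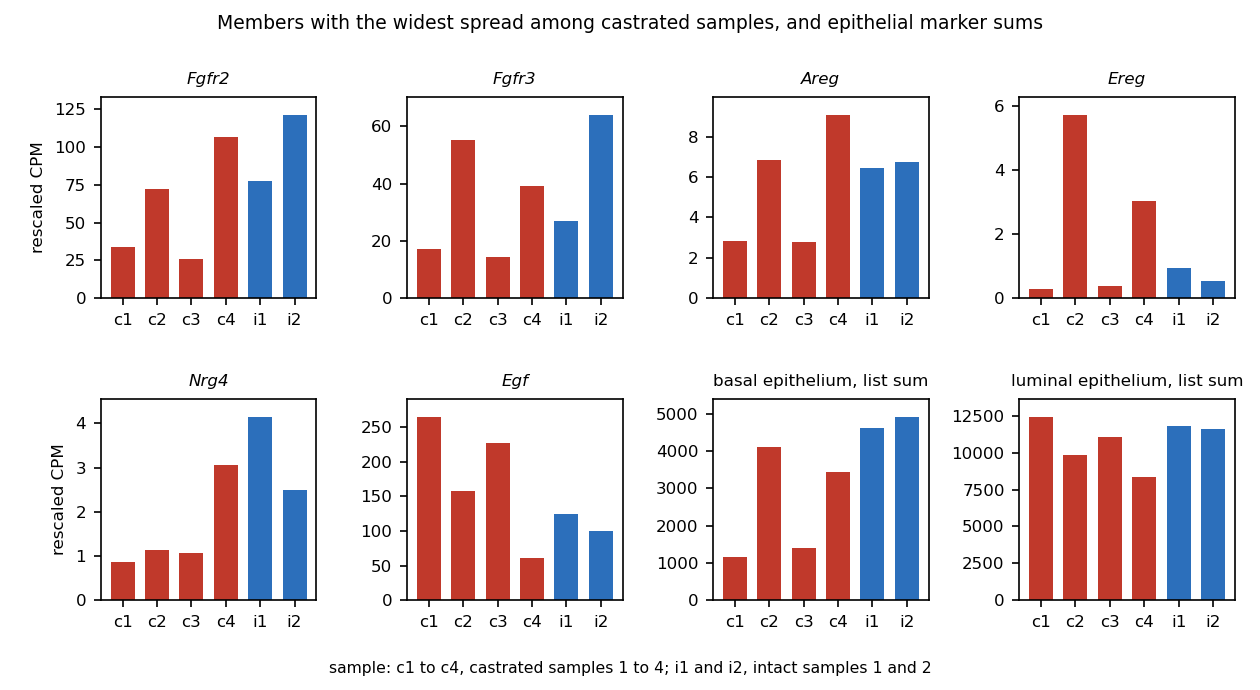
Rescaled CPM of the 6 members with the widest spread among castrated samples, and summed rescaled CPM of the basal and luminal marker lists, in castrated samples 1 to 4 (c1 to c4) and intact samples 1 and 2 (i1, i2). Among castrated samples Fgfr2, Fgfr3 and Areg are lowest in c1 and c3, as are the basal sum and many members not shown, and Egf is lowest in c4. Ereg is also lowest in c1 and c3, which the filter fixed, since Ereg passed it only through c2 and c4.

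Of the other marker lists, neutrophil genes summed to 213.5 to 371 in castrated and 32.9 and 74.6 in intact samples. Of 7 tested neutrophil genes limma called 4 higher, edgeR 2 and DESeq2 7, against 1.97%, 1.46% and 9.31% of all tested genes. Endothelial genes summed to 113 to 199 and to 180.2 and 203, macrophage genes to 847 to 1305 and to 894 and 1106, and adipocyte genes to 75.7 to 119 and to 59.2 and 69.6, castrated before intact. Schwann cell genes, a list that includes Erbb3, summed to 184 to 253 and to 182 and 242. Skeletal muscle genes were at 19.02 in castrated sample 1, at 1.74 to 2.28 in the other castrated samples and at 2.32 and 3.32 in intact samples. In the 5 lists of this group other than neutrophils, and in the urothelial list, limma and edgeR called 0 genes. At an unadjusted p under 0.05 limma had 3 endothelial, 3 macrophage and 1 adipocyte genes, against 15.9% of all tested genes. DESeq2 called 1, 3 and 1 of these lists, against 9.31% of all tested genes. No gene of any marker list was without reads, and the part of these cell types in the members' values was not tested.

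The remaining 21 members had few or no reads. They comprise 16 FGF ligands, Fgfr4, Epgn, Nrg1, Nrg3 and Erbb4. Fgf3, Fgf6, Fgf8, Fgf15, Fgf20 and Fgf22, several of them known from the embryo or the intestine, had 0 reads in every sample. Such a count is compatible with up to 3 reads, which equal 0.0507 CPM in the deepest and 0.0687 CPM in the shallowest sample, and this floor covers counting error only. Fgf4, Fgf5 and Fgf21 had 1 to 3 reads over all samples together.

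With the filter removed, 15 of the 21 had reads and limma called 0 of them, with 1 at an unadjusted p under 0.05, Fgf18. Fgf18, a ligand of bone and lung development, was at 0.228, 0.251, 0.176 and 0.872 rescaled CPM in castrated samples 1 to 4, against 2.04 and 0.892 in intact samples. Every castrated sample was below both intact samples, though castrated sample 4 by little (log2 difference -1.15, limma adjusted p = 0.246 without a filter). Fgf12 had 26, 52, 39 and 98 reads in castrated and 3 and 31 in intact samples. Fgf23, a hormone of bone, had 33 reads in intact sample 1, 1 in intact sample 2 and 0 to 4 in castrated samples. Nrg1, the best known neuregulin, was at 0.229 to 0.880 rescaled CPM in castrated and at 1.71 and 0.472 in intact samples. Among the others, reads in castrated and then intact samples were 8 to 63 and 10 to 19 for Fgf2, 8 to 58 and 11 to 12 for Fgf16, 0 to 17 and 0 to 15 for Fgf14, 0 to 2 and 1 for Fgf17, 0 to 2 and 1 to 8 for Nrg3, and 5 to 23 and 9 to 23 for Epgn. In 4 of these 6 genes, all but Nrg3 and Fgf17, castrated sample 4, the deepest, had the most reads of the castrated samples. It was the highest castrated sample in 4920 of the 13898 tested genes. Erbb4 had its fewest reads there, 9, against 31, 38 and 52 in castrated samples 1 to 3.

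Genes that work around the receptors were examined through 5 lists, beside the 1.97% of all genes that limma called. At an unadjusted p under 0.05 limma had 15.9% of all tested genes, while edgeR called 1.46% and DESeq2 9.31%. Of 26 heparan sulfate genes 22 were tested and 1 fell, Sulf2 (chromosome 2, 166073089 to 166155663), an extracellular enzyme that removes sulfate from heparan sulfate chains. Sulf2 was at 45.4, 40.5, 33.4 and 55.9 rescaled CPM in castrated samples 1 to 4, against 159 and 114 in intact samples. It was lower in 4 of 4 castrated samples, 3.10-fold, with a log2 difference of -1.63 (SE 0.23, limma adjusted p = 0.0249), and edgeR gave an adjusted p of 0.0275. With 1 sample left out the fall was 2.64-fold to 3.66-fold, and the call held in 1 of 6 such fits, that without castrated sample 4. In the other 5 its adjusted p was 0.0631 to 0.1995. Without castrated sample 4, 5 genes of the list were called, against 7.63% of all tested genes. In this list DESeq2 called 2 genes higher and 1 lower, and the median difference was -0.11. Gpc5 had 0 reads.

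Of the coreceptors and FGF-binding proteins, limma called 0 of 8 tested (1 at an unadjusted p under 0.05), edgeR 0 and DESeq2 1. Fgfbp1, a secreted carrier that releases FGFs from the matrix, was at 71.5, 74.5, 55.5 and 78.8 in castrated samples, against 138 and 106 in intact samples. The groups were apart, with a log2 difference of -0.79 (SE 0.17) and an adjusted p of 0.0822 in limma and 0.00182 in DESeq2. Ncam1, an adhesion molecule that can bind FGF receptors, averaged 5.06 ± 2.06 in castrated and 9.31 ± 2.64 in intact samples (limma adjusted p = 0.338). Flrt2, a membrane protein of a family that binds FGF receptors, averaged 17.8 ± 8.52 and 12.04 ± 5.45 (limma adjusted p = 0.625).

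Of the genes that shed ligands or restrain ERBB receptors, limma called 0 of 16 tested (3 at an unadjusted p under 0.05), and edgeR and DESeq2 called 0. Rhbdf1 and Rhbdf2, the partners of the shedding protease ADAM17, averaged 74.1 ± 5.97 and 32.3 ± 5.13 in castrated samples, against 94.1 ± 0.811 and 42.6 ± 1.12 in intact samples. Their limma adjusted p were 0.160 and 0.281. Lrig1, a negative regulator of ERBB receptors, averaged 28.3 ± 7.92 in castrated and 43.6 ± 2.05 in intact samples (limma adjusted p = 0.275).

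In the RAS and ERK cascade limma called 0 of 20 tested genes (3 at an unadjusted p under 0.05), edgeR 0 and DESeq2 2. Rasa1, a GTPase activator that turns RAS off, averaged 79.2 ± 2.29 in castrated and 60.6 ± 0.391 in intact samples (limma adjusted p = 0.0765). The kinase gene Braf averaged 50.5 ± 3.70 and 37.9 ± 1.16 (limma adjusted p = 0.114). Castrated and intact samples were apart for both of these genes.

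Of the genes that ERK signalling is known to induce, limma called 0 of 19 tested, edgeR 0 and DESeq2 2, against 9.31% of all tested genes in DESeq2. At an unadjusted p under 0.05 limma had 4, against 15.9% of all tested genes. Differences were positive in 15 of the 19, with a median of 0.26, against 0.00 over all tested genes. Without intact sample 2 they were positive in 11 of 19, with a median of 0.065, and without intact sample 1 the median was 0.46. Dusp6, a phosphatase that switches ERK off, was at 232, 172, 176 and 114 in castrated samples, against 108 and 61.0 in intact samples. Every castrated sample was above both intact samples, castrated sample 4 by little, with a log2 difference of 1.04 (SE 0.32) and a limma adjusted p of 0.177. Il17rd, an inhibitor of FGF signalling, averaged 21.7 ± 3.33 and 14.02 ± 0.131 (limma adjusted p = 0.146). The cyclin gene Ccnd1 had the opposite sign, at 217 ± 39.2 in castrated and 332 ± 77.3 in intact samples (limma adjusted p = 0.195). Without castrated sample 4, limma adjusted p were 0.0389 for Fgfbp1, 0.0480 for Rhbdf1, 0.0487 for Rasa1, 0.0441 for Dusp6 and 0.0447 for Ccnd1.

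**Figure D4:**
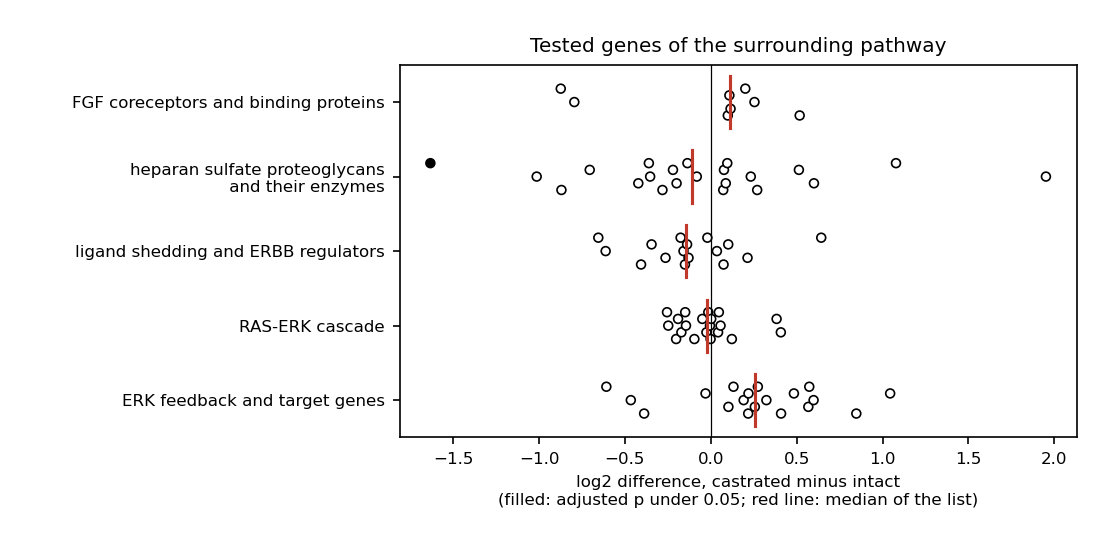
Log2 difference, castrated minus intact, of every tested gene in 5 lists of genes that act with the receptors. Each point is a gene, a red line is the list's median and a filled point passed the limma threshold. Sulf2, at -1.63, is the filled point, and the ERK feedback and target list has a median of 0.26, which was 0.065 without intact sample 2.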

How the data were processed

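Poly(A) status and read length of the libraries are not given in the sources used here. The authors deposited 1 table of CPM per sample, with 24421 symbols. Tools named in the submitters' processing notes are TopHat2, HTSeq and edgeR, with the build mm10. Each deposited column of CPM sums to 1000000, and 100% of its values are whole multiples of the smallest, within a tolerance of 1e-06, so whole reads were recovered.

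Library scaling used size factors from medians of ratios. The 13898 genes that reached 1 CPM in 2 or more samples were tested with limma 3.58.1 in R 4.3.3 on log2(rescaled CPM + 0.5), castrated minus intact, with a mean-variance trend, two-sided p-values and Benjamini-Hochberg adjustment over all tested genes. This scale understates differences of weakly expressed genes. edgeR 4.0.16 and DESeq2 1.42.0 were also run, on recovered whole reads. Before use, each fit was tested on simulated data. Every 2 samples differed by far more than counting error, so none was treated as a duplicate.

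The members, the lists and the rule for naming genes were chosen with earlier results of these data known. Every member is named, and from each pathway list the called genes or, with none, the 3 with the smallest p. Alternatives changed the pseudocount, the filter, the scaling, the trend or the sample weights, left out each sample in turn, or took the replicate number as a block. Positions and exon lengths are from GENCODE M21 (GRCm38, which mm10 names), in which all 42 members were found, and may differ from the annotation the authors used. The listed genes Anos1, Nrdc and Ly6g had no row under these symbols. Values of some named genes, the floxed gene among them, are not reported here.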

Additional observations from a re-analysis of the deposited data

Results flagged for a closer look

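Within the 4 castrated samples, 1 value lay far from the other 3 for 2 of the 34 genes examined, judged by its gap to the nearest divided by the group's range on the log2 scale (Dixon's test at 95%). For Fgfr1 the ratio was 0.862 and for Flrt2 it was 0.884, and in each case castrated sample 4 was the highest. Chance gives such a gap in about 1 in 20 groups. Fgfr1 was at 71.4 rescaled CPM in castrated sample 4, against 38.1 to 41.6 in the other castrated samples, and Flrt2 at 30.5 against 12.9 to 14.3. Without castrated sample 4, the log2 difference of Fgfr1 between castrated and intact samples was 0.05. The sum of fibroblast markers was also highest in castrated sample 4, at 2073, and its part in these values was not tested.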

How the results depend on the processing

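The count of 0 called members held in limma with other pseudocounts, filters and scalings, without a mean-variance trend, with the replicate block and in edgeR. It was 1 with array weights and 1 in DESeq2, and 0 to 2 with 1 sample left out (2 without castrated sample 4, Fgf13 and Nrg4). Calls over all tested genes numbered 274, against 170 with no filter, 954 with array weights, 1293 in DESeq2, 417 with the replicate block and 1 to 1052 with 1 sample left out (1 without intact sample 2, 9 without intact sample 1, and, leaving out castrated samples 1 to 4 in turn, 78, 83, 46 and 1052). The replicate numbers are shared by 2 pairs of samples, whose deviations correlated at 0.0754 and 0.226. With 2 intact samples these values are not independent, so they do not decide if the pairs share more than a number. With the block, heparan sulfate genes had 3 calls and ERK feedback genes 2, against 1 and 0 without it. The block fit called 3% of all tested genes.

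With array weights the calls were 1 for coreceptors, 4 for heparan sulfate genes, 1 for shedding genes and 2 for the RAS and ERK cascade. The share over all tested genes was then 6.86%. In DESeq2 the calls in these lists were 1, 3, 0 and 2, and 2 for ERK feedback genes, against 9.31% of all tested genes. With 1 sample left out they were 0 to 1, 0 to 5, 0 to 1 and 0 to 1, and 0 to 2 for ERK feedback genes, each highest count being that without castrated sample 4. Without castrated sample 4, limma called 7.63% of all tested genes, and the cause was not tested.

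Signs turned for 5 members whose differences did not pass the threshold. Hbegf had a log2 difference of 0.059 with array weights, 0.076 with the replicate block and -0.22 to 0.059 with 1 sample left out, and Erbb3 of 0.018 on values as deposited and -0.17 to 0.10 with 1 left out. With 1 left out, Erbb2 ranged from -0.22 to 0.25, Btc from -0.24 to 0.070 and Fgfr3 from -1.23 to 0.0053. With the longest transcript as length, 18 of 21 members changed rank by level per kilobase, by at most 4 places. With 2 intact samples, intervals of the most variable members spanned several-fold, so differences of that size were not detectable for them.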
